A study of Mus musculus with 24 samples.

Results

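Resolvin E1 (RvE1) injection was compared with no injection in mice that had been given diphtheria toxin to remove regulatory T cells (Treg). The comparison used 8 of the 24 RNA sequencing samples of the series, chosen by their labels: 4 of (dep)BCP+MSC+RvE1inj, given toxin and RvE1, and 4 of (dep)BCP+MSC, given toxin alone. All 8 were whole subcutaneous constructs collected at week 2 from Foxp3-DTR/eGFP mice of both sexes, implanted at 8 to 9 weeks of age, in which Foxp3-expressing cells carry the receptor for the toxin. Each construct held BCP (biphasic calcium phosphate, a bone-filling ceramic; 40 mg as granules) and 800000 mesenchymal stromal cells (MSC) of passage 2, grown from marrow of C57BL/6J wild type or Foxp3eGFP mice. Toxin was given intraperitoneally at 50 µg/kg on days 1, 2, 4, 6, 8 and 10 in both groups. RvE1 was injected daily next to the construct, at 1 µM in 50 µL, and the methods name no vehicle injection for (dep)BCP+MSC, so that RvE1 and repeated injection cannot be told apart here. Undepleted BCP+MSC and BCP+MSC+RvE1, whose MSC were primed with 10 nM RvE1 before implantation in mice given no toxin, served as reference groups of 4 samples each. The question was which genes of the construct differed with local RvE1 when Treg had been depleted.

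Treg are the CD4+ T cells that restrain other lymphocytes through the transcription factor Foxp3, and their loss is known to release T cell and B cell responses. RvE1 is a lipid mediator made from eicosapentaenoic acid that acts on the receptors Cmklr1 (ChemR23) and Ltb4r1 (BLT1) and is known for limiting neutrophil entry and promoting the clearing of inflammation. B cells carry the antigen receptor with the signalling chains Cd79a and Cd79b and mature into plasma cells, which secrete immunoglobulin.

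Samples are named here by group and by the number of their column of counts, which runs 1, 2, 4 and 5 in the toxin-only group and 1 to 4 in the injected group. Toxin-only samples 1 and 2 came from female mice by their Xist and Y-linked transcripts, and the other 6 from male mice, so that no injected sample was female. The female samples stood apart from toxin-only samples 4 and 5 in lymphocyte, antigen presentation, glucocorticoid and clock genes, and sample 1 also held epidermal transcripts. Undepleted BCP+MSC samples 1 to 3 were female too. Their mean log2 CPM was 5.57, 5.15 and 5.83 for glucocorticoid genes, beside 5.77 in male sample 4. It was 4.31, 4.39 and 4.44 beside 4.60 for clock genes. For MHC class II genes it was 4.88, 4.55 and 4.97 beside 5.07, and for NK genes 1.37, 0.34 and 1.22 beside 1.62. What set toxin-only samples 1 and 2 apart was not tested. Total counts ran from 8482701 in toxin-only sample 1 to 85519916 in the toxin-only group and from 13803176 to 84138305 in the injected group. List results and most genes described are therefore given also against the 2 male toxin-only samples alone, a fit chosen after seeing the data. That fit holds fewer samples, so a gene not called in it is not shown to be unchanged. A fit with sex as a covariate, whose sex effect is shared over all groups, is given for some of the lists where it differs from the male comparison. The labels call the samples biological replicates, and the methods use that term for individual animals.

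Of 30564 genes tested, edgeR called none at an adjusted p under 0.05, with 0.668 as the lowest adjusted p of any gene. DESeq2 on all samples called 8. At an unadjusted p under 0.05, 2269 genes (7.42%) were found, and 802 of them were higher and 765 lower by more than 1 on the log2 scale in the injected group, which is 2.62% and 2.5% of the genes tested. Below, a gene is called higher or lower when it met this unadjusted threshold with the fold limit in edgeR, and no such call withstood adjustment in that fit. With only the male toxin-only samples, 528 genes (1.75%) were called higher and 279 (0.924%) lower, and 862 genes (2.86%) had an unadjusted p under 0.05. With no fold limit, 3.46% of genes were higher and 3.96% lower at that p against all 4 samples, and 1.83% and 1.03% against the male ones. Of the 802 genes higher against all 4 samples, 263 were also called in that fit (32.8% of the 802 and 49.8% of the 528), and of the 765 lower genes 180 were (23.5% and 64.5%). Normalised CPM, the counts scaled to the TMM-adjusted size of each library, did not overlap between the groups for 398 genes above and 397 below, 1.3% of the genes in each direction.

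In 35 lists of marker and pathway genes, the highest medians were those of immunoglobulin variable segments (1.68), red cell and platelet genes (1.48) and B cell identity genes (1.43), and the lowest was that of skin and hair genes (-2.24). The 35 lists had a median log2 fold change above 0 in 23 cases, beside a median of 0.00 over all genes tested. Without the female samples the median of 11 lists turned direction. The B cell identity list kept both its direction and most of its calls, whereas the T cell, NK and interferon lists kept their direction and lost all calls. With sex as a covariate on all samples, these lists kept calls: 4 T cell, 4 NK and 6 interferon genes, with medians of 0.70, 1.00 and 0.77, and the B cell identity list had 10, with a median of 1.45. In that fit 3 MHC class II, 1 plasma cell, 1 red cell and 2 adipocyte genes were called higher, with list medians of 0.66, 0.98, 1.36 and 0.18. Of the skin and hair genes 3 were called lower and 1 higher, with a median of -0.88.

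**Figure D1:**
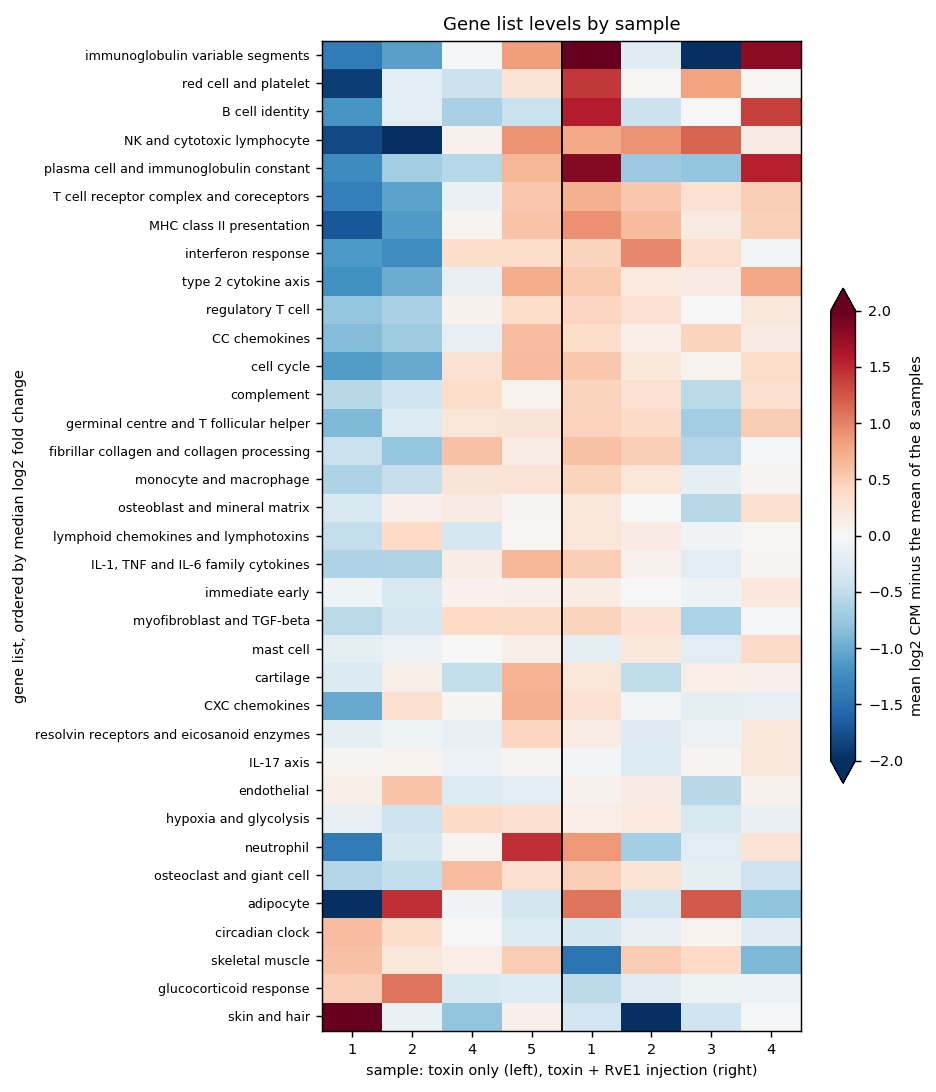
Mean log2 CPM of the members of 35 gene lists in toxin-only samples 1, 2, 4 and 5 (left of the line) and injected samples 1 to 4 (right), as a difference from the mean of the 8 samples, with colours cut at 2 in either direction. The B cell identity row is highest in injected samples 1 and 4, and the T cell, NK, MHC class II and interferon rows are lowest in toxin-only samples 1 and 2.

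**Figure D2:**
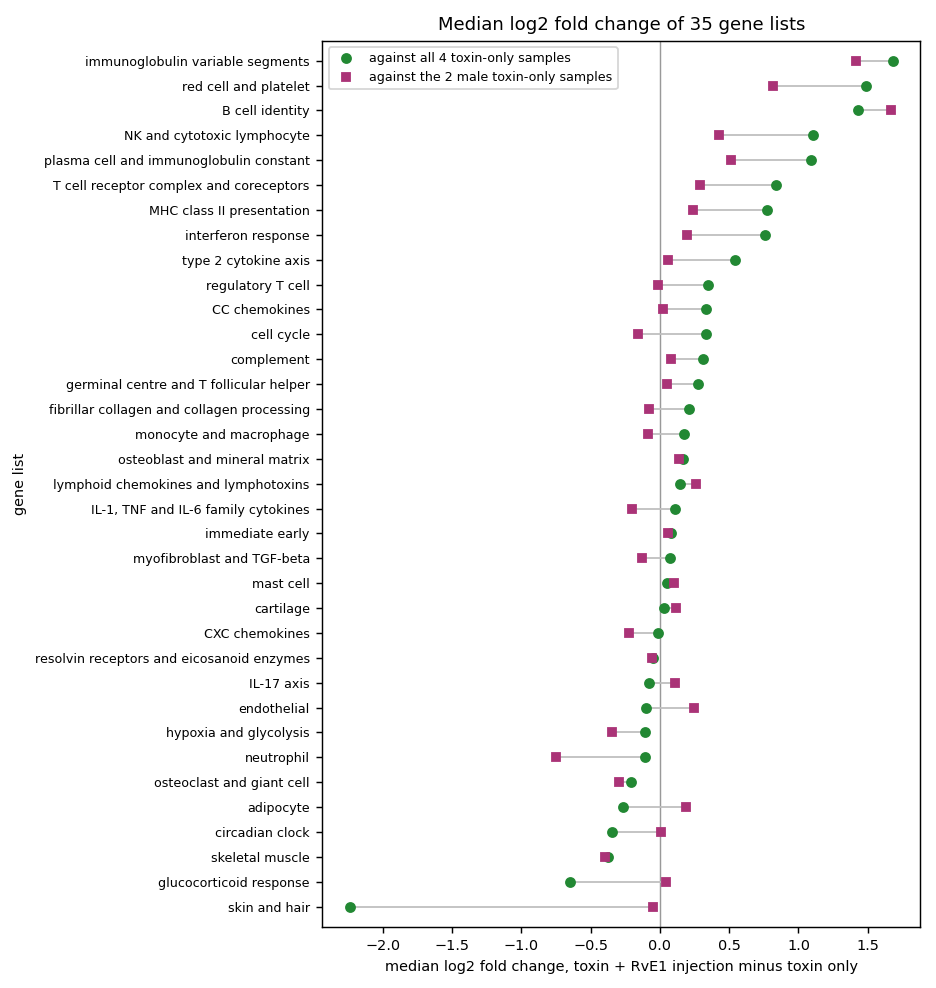
Median log2 fold change of each list, injected minus toxin only, against all 4 toxin-only samples (circles) and against the 2 male ones (squares). The B cell identity list moves from 1.43 to 1.67, while the NK list moves from 1.10 to 0.43 and the skin and hair list from -2.24 to -0.05.

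B cell genes were higher in the injected group, mainly in a pair of its samples. All 25 members of the B cell identity list had a positive log2 fold change, with a median of 1.43, and 13 were called higher and 0 lower, beside 2.62% of all genes called higher. The 13 were H2-Ob, Ms4a1, Cd79b, Fcmr, Spib, Blk, Pax5, Cd79a, Vpreb3, Cd27, Fcrla, Cxcr5 and Tnfrsf13c. Against the male samples alone 12 of 25 were called higher, with a median of 1.67. Cd27, Fcrla and Tnfrsf13c were then no longer among them, while Fcer2a was. The mean log2 CPM of the list was -0.11, 0.84, 0.42 and 0.63 in toxin-only samples 1, 2, 4 and 5 and 2.63, 0.63, 1.06 and 2.44 in injected samples 1 to 4. Injected samples 1 and 4 were thus above all others, and samples 2 and 3 lay near the toxin-only range. Without injected sample 1 the count of members called higher was 9, and without injected sample 4 it was also 9. Skeletal muscle genes were lowest in this same pair: the summed CPM of 28 muscle genes was 10250 and 14700 in injected samples 1 and 4, 39190 and 49110 in samples 2 and 3, and 33640 to 51830 in the toxin-only samples. The part of muscle content in the B cell result was not tested. Total counts were 84138305 in sample 1 and 15230930 in sample 4. In undepleted BCP+MSC the list stood between 0.86 and 2.13. In bulk samples, fewer cells of a type and less RNA per cell cannot be told apart.

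H2-Ob, a chain of the MHC class II modulator H2-O of B cells, had the smallest p of any gene tested. It stood at 0.598, 0.530, 1.00 and 0.882 CPM in toxin-only samples 1, 2, 4 and 5 and at 5.26, 1.31, 1.34 and 3.79 CPM in injected samples 1 to 4. The groups did not overlap, and all injected samples exceeded the highest toxin-only sample. Its log2 fold change was 1.94 ± 0.41 (SE) in edgeR, and 1.67 against the male samples alone, both at an unadjusted p under 0.05. Ms4a1, which encodes the B cell surface protein CD20, had 0, 0.602, 0.282 and 0.525 CPM in the toxin-only samples and 4.62, 0.390, 0.970 and 3.91 CPM in the injected ones. Injected sample 2 lay within the toxin-only range, and the log2 fold change was 2.70 ± 0.76 (exact permutation p = 0.0857) and 2.65 against the male samples. Cd79b stood at 4.29, 5.97, 2.35 and 5.63 CPM against 20.0, 5.10, 10.7 and 22.3 CPM. Cd79a stood at 1.30, 5.06, 1.18 and 2.60 CPM against 18.3, 1.43, 2.98 and 17.5 CPM. Both chains were highest in injected samples 1 and 4, with log2 fold changes of 1.67 ± 0.47 and 1.98 ± 0.75 and exact permutation p-values of 0.0857 and 0.2, and they had 1.89 and 2.44 against the male samples.

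Among the other B cell genes, Pax5, the factor that fixes B cell identity, had a log2 fold change of 2.78 and Blk, a kinase of the B cell receptor, one of 2.30. Fcmr, the receptor for IgM, had 3.27. It stood at 0, 0.0964 and 0.0353 CPM in toxin-only samples 1, 2 and 4, so its fold rests on near-zero levels there. The lowest log2 fold changes of the list were 0.15 for Ebf1 and 0.16 for Cd22. Cd27, carried by memory B cells and T cells, showed another order of samples. It stood at 0.399, 1.01, 3.08 and 3.06 CPM in the toxin-only samples and at 4.03, 3.94, 3.88 and 4.21 CPM in the injected samples. The injected samples lay close together and above all toxin-only samples, but most of the difference was to toxin-only samples 1 and 2: the log2 fold change was 1.05 against all 4 (exact two-sided permutation p = 0.0286, the smallest that 4 against 4 samples can give) and 0.40 against the male samples.

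Immunoglobulin transcripts were high in the same pair of injected samples. Of 24 plasma cell and immunoglobulin constant genes, 4 were called higher (Ighg2c, Ighg1, Ighd and Ighe) and 0 lower, beside 2.62% of all genes called higher. The median log2 fold change of the 24 was 1.09. In the male comparison 0 were called and the median was 0.51. Without injected sample 1 the count was 0, without injected sample 4 it was 2, and without toxin-only sample 1, 4 or 5 it was 0, 1 and 9. Ighg1, the IgG1 constant region, stood at 27.7, 57.9, 34.7 and 55.4 CPM in toxin-only samples and at 2184, 23.6, 78.0 and 604 CPM in injected samples, a log2 fold change of 4.04 ± 1.65. Injected sample 2 was the lowest of all 8, and the exact permutation p was 0.229. Ighe, the IgE constant region, stood at 2.09, 9.52, 1.78 and 1.18 CPM against 86.2, 6.02, 12.5 and 72.4 CPM, a log2 fold change of 3.59. Ighg2c and Ighd had log2 fold changes of 1.75 and 1.47.

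The more abundant immunoglobulin genes were not called. Ighm, the IgM constant region, stood at 98.4, 230.1, 832 and 2514 CPM in the toxin-only samples and at 4137, 346, 173 and 3003 CPM in the injected samples, and the groups overlapped. Igkc, the kappa constant region, had a log2 fold change of 1.54, Igha, the IgA constant region, 1.43, Mzb1, a chaperone of plasma cells, 1.46, and Jchain, the joining chain of secreted IgM and IgA, 1.20, with exact permutation p-values of 0.257, 0.0857, 0.2 and 0.314 in that order. Of 197 immunoglobulin variable segments tested of 216 listed, 34 were called higher and 6 lower, beside 2.62% and 2.5% of all genes. The median of the segments was 1.68. The segments with the smallest p were Igkv4-59, Ighv1-39, Igkv2-109 and Igkv17-121, at log2 fold changes of 6.39, 4.54, 5.98 and 5.55. Each was above 5 CPM in injected samples 1 and 4. Without injected sample 1 the count of segments called higher was 16, and without toxin-only sample 5 it was 52. Against the male samples 12 segments were called higher and 8 lower, beside 1.75% and 0.924% of all genes. Segments of one family share sequence, and reads that aligned to several places were not counted, so single segments are uncertain.

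**Figure D3:**
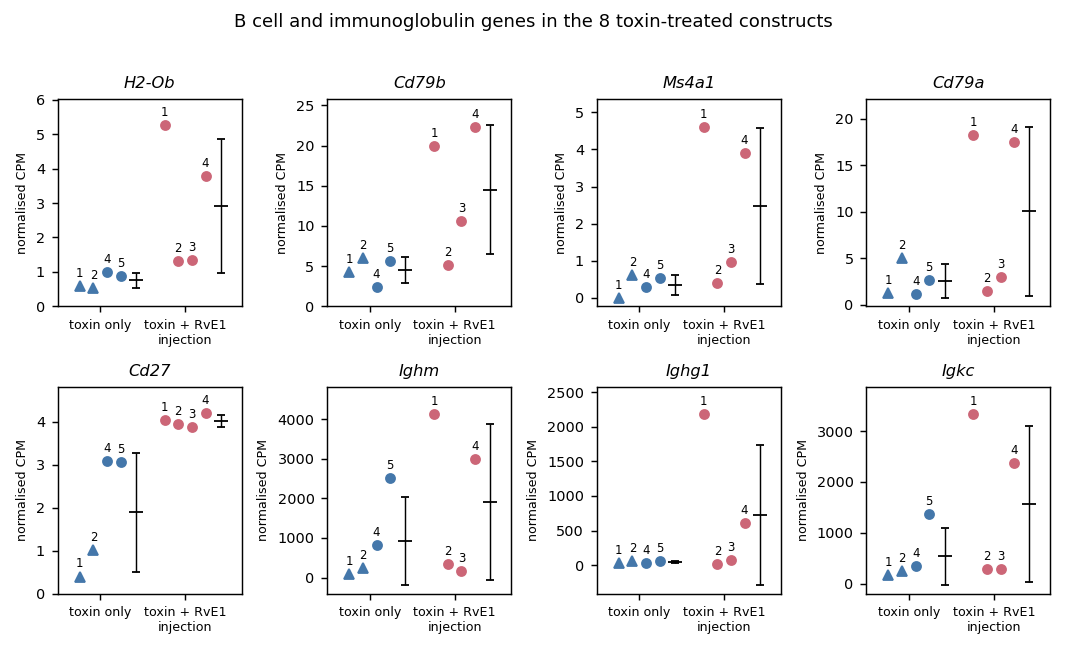
Normalised CPM of 8 B cell and immunoglobulin genes in each toxin-only sample (blue, triangles for the female mice 1 and 2) and each injected sample (red), numbered as in the text, with the mean and SD of each group as a bar. For Cd79a, Cd79b, Ms4a1, Ighg1 and Igkc, injected samples 1 and 4 lie above the other 6, while Cd27 is between 3.88 and 4.21 CPM in all 4 injected samples.

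Foxp3, the gene through which the toxin acts, was not called. It stood at 1.70, 0.891, 0.976 and 0.378 CPM in the toxin-only samples and at 0.701, 0.754, 0.298 and 1.07 CPM in the injected samples, beside 0.629 to 1.19 CPM in undepleted BCP+MSC. Its log2 fold change was -0.43 ± 0.51 (exact permutation p = 0.429). Of 23 Treg genes only Klrg1 was called. Klrg1, a receptor of terminally differentiated T and NK cells, stood at 0.0997, 0.217, 0.658 and 0.987 CPM in the toxin-only samples and 1.60, 1.57, 2.16 and 1.60 CPM in the injected samples. The groups did not overlap, and the log2 fold change was 1.73 ± 0.45 and 1.08 against the male samples. Il2ra, the high-affinity IL-2 receptor chain, was at 1.70 and 2.65 CPM in the female toxin-only samples and between 8.80 and 11.3 CPM in the other 6.

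T cell and NK cell genes were called higher in the injected group against all 4 toxin-only samples but not against the male ones. Of 24 T cell receptor and coreceptor genes, 24 had a positive log2 fold change and 10 an unadjusted p under 0.05 (3.46% of all genes were higher at that p), with a median of 0.84 and 4 called higher, which were Trbc2, Trbc1, Lat and Cd8b1. Against the male samples alone 0 were called and the median was 0.29. Trbc2, a constant region of the T cell receptor beta chain, stood at 3.69, 4.38, 7.93 and 15.4 CPM against 18.7, 16.6, 29.3 and 16.6 CPM. The groups did not overlap, but toxin-only sample 5 was close to the injected samples. Lat, the adaptor of T cell receptor signalling, had a log2 fold change of 1.18 (0.70 against the male samples) and Trbc1 one of 1.27 (0.56), and Cd6, a T cell costimulatory receptor, had 0.76 (exact permutation p = 0.0571).

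Of 20 NK and cytotoxic lymphocyte genes, 7 were called higher, with a median of 1.10, beside 2.62% of all genes called higher. Against the male samples 0 of the 20 were called, with a median of 0.43, beside 1.75% of all genes called higher. The mean log2 CPM of this list was -0.84 and -1.21 in the female toxin-only samples, 1.06 and 1.86 in the male ones, and 1.72, 1.87, 2.13 and 1.14 in the injected samples. The male toxin-only samples thus lay at the injected level or just under it. Tbx21, the T-bet factor of cytotoxic and type 1 lymphocytes, stood at 0.299, 0.602, 2.21 and 3.38 CPM against 4.29, 4.44, 3.88 and 4.38 CPM, and its log2 fold change of 1.35 was 0.62 against the male samples. The NK receptor genes Klre1, Klrk1 and Klrb1c had log2 fold changes of 1.59, 1.10 and 1.10, and of 0.88, 0.55 and 0.49 against the male samples. Ccl5, a chemokine of cytotoxic lymphocytes, stood at 4.79, 3.54, 12.4 and 20.0 CPM against 20.0, 25.2, 29.6 and 17.4 CPM, with a log2 fold change of 1.17 ± 0.46 and 0.52 against the male samples. Counts of called T cell and NK members were 0 and 2 without toxin-only sample 2, were 1 and 3 without sample 1, and were 17 and 13 without sample 5.

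Interferon-response genes were lowest in the female toxin-only samples, and their mean log2 CPM was 2.72, 2.64, 4.23 and 4.23 in the toxin-only samples and 4.32, 4.83, 4.20 and 3.81 in the injected samples. Of 26 members, 24 had a positive log2 fold change and 5 were called higher (2.62% of all genes were called higher), with a median of 0.76. Against the male samples 0 were called, with a median of 0.20. The promoters of 3 members are shown because the list was gathered by a shared response. In each window, from 250 bases before to 50 after the start of the gene (RefSeq, GRCm38.p6), capitals mark matches, on either strand, to 2 copies of GAAA set 2 bases apart (TTTC on the other strand), the core of the element bound by interferon-activated factors.
Irgm1: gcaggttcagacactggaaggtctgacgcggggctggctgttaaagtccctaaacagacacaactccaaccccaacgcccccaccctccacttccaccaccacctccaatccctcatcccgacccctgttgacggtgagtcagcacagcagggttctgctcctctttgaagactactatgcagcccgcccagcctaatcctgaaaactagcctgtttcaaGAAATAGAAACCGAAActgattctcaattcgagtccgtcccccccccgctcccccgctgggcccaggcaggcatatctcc
Ifit1: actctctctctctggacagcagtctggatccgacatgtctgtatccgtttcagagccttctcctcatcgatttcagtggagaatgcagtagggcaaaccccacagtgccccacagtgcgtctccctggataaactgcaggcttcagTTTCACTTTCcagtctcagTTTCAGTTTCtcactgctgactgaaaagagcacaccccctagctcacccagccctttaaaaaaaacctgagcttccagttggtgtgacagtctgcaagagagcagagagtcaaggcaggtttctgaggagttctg
Gbp2: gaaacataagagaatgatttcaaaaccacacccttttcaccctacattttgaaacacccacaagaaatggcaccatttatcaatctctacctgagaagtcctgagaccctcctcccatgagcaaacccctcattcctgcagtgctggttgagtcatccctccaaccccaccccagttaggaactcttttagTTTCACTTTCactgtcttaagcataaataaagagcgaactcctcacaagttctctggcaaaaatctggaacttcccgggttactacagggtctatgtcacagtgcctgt
The windows lie at chr11:48871371-48871670 (minus strand), chr19:34640639-34640938 (plus strand) and chr3:142620413-142620712 (plus strand). Irgm1 and Ifit1 held 2 matches each, overlapping in Irgm1, and Gbp2 held 1. Of 17 listed genes with a promoter in the table, 10 (58.8%) held the motif, beside 3.99% of all 27025 genes in it.

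Irgm1, a GTPase that guards against intracellular pathogens, stood at 32.3, 29.5, 73.2 and 64.4 CPM in the toxin-only samples and at 65.6, 152, 227 and 59.6 CPM in the injected samples. Injected samples 2 and 3 were above all others, and samples 1 and 4 were level with the male toxin-only samples. Its log2 fold change was 1.33 ± 0.37 (exact permutation p = 0.143) and 0.88 (p = 0.0506) against the male samples. Ifit1, an antiviral RNA-binding protein, was likewise highest in injected samples 2 and 3, with 4.68, 3.59, 18.2 and 18.1 CPM against 19.9, 38.1, 39.4 and 13.4 CPM. Gbp2 and Ifi47, both interferon-induced GTPases, had log2 fold changes of 1.09 and 0.90, and of 0.41 and 0.32 against the male samples. Without injected sample 3 the count of interferon genes called higher was 0, without injected sample 2 it was 1, without toxin-only sample 1 or 2 it was 1 each, and without toxin-only sample 4 or 5 it was 9 and 11.

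MHC class II genes present antigen to CD4+ T cells and are carried by B cells, dendritic cells and macrophages. Of 20 listed, 6 were called higher (2.62% of all genes) and 9 were higher at an unadjusted p under 0.05 (3.46% of all genes). The list median was 0.77. In the male comparison only H2-Ob was called, with a list median of 0.24. The number called was 2 without toxin-only sample 1, 2 or 4 or without injected sample 1, and 11 without toxin-only sample 5. H2-Eb1 stood at 153, 115, 326 and 781 CPM in the toxin-only samples and 864, 810.0, 483 and 718 CPM in the injected samples, so that toxin-only sample 5 reached the injected level. H2-DMb2, part of the complex that loads peptide, had a log2 fold change of 1.29, and of 0.59 against the male samples. Mir5107, called higher at 1.64, lies within Cd74, the invariant chain gene, on the same strand, and its reads cannot be told apart from those of Cd74. Of the B cell identity genes with a promoter in the table, 2 of 20 held the octamer ATGCAAAT, the site of the Oct factors of B cells, beside 1.97% of all genes in the table. The window of Vpreb3, a member of the B cell identity list with a log2 fold change of 2.23, is chr10:75948050-75948349 (plus strand), with the octamer in capitals as read on the other strand.
Vpreb3: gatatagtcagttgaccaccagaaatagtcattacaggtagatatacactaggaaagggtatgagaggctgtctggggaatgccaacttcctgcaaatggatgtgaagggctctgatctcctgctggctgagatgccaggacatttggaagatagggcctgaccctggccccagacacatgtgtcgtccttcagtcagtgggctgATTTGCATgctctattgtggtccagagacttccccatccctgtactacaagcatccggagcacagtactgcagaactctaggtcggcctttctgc

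Beyond the lists, the 10 higher and 10 lower called genes with the smallest p were described, among named genes without overlap between the groups and with a mean of 10 or more counts in the higher group. Besides H2-Ob and Klrg1, the higher ones reported are Klra1, Pi16, Chst7, Mir5107, Ephx4, Tbc1d10c and Pim2. Pi16, a marker of adventitial fibroblasts, stood at 33.2, 39.8, 74.9 and 109.8 CPM against 149, 186, 184 and 144 CPM. Klra1, an NK cell receptor, stood at 0.199, 0, 0.0823 and 0.273 CPM against 0.350, 0.390, 6.12 and 0.948 CPM, so injected sample 3 gave most of its log2 fold change of 3.84. Chst7, a sulfotransferase, stood at 0.698, 0.674, 1.24 and 1.59 CPM against 2.24, 2.54, 2.31 and 2.55 CPM. Chst7, Pim2, a kinase of lymphocyte survival, Tbc1d10c, a lymphocyte inhibitor of Ras and calcineurin, and Ephx4 had log2 fold changes of 1.17, 1.38, 1.13 and 1.78. All 10 kept their direction against the male samples, and 6 of 10 kept an unadjusted p under 0.05. Those that did not were Pi16, Pim2, Tbc1d10c and Mir5107. Their log2 fold changes against the male samples were 0.86, 0.84, 0.76 and 1.055, with unadjusted edgeR p-values of 0.0555, 0.116, 0.101 and 0.0573.

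The lower genes were Oacyl, Rps6ka2, Dsc3, Ccdc162, Nwd1, Ankrd53, Abat, Trpm3, Itpkc and Ccdc85c. Rps6ka2, a ribosomal S6 kinase, stood at 63.4, 45.9, 51.4 and 31.6 CPM in the toxin-only samples and 21.2, 31.2, 21.6 and 12.9 CPM in the injected samples. Its log2 fold change was -1.14 ± 0.32 in edgeR (no exact permutation p is given for genes chosen for lack of overlap) and -0.92 (p = 0.0227) against the male samples. Trpm3, a cation channel, stood at 1.30, 0.458, 0.658 and 0.609 CPM against 0.350, 0.310, 0.0746 and 0.0592 CPM, with a log2 fold change of -1.70 and of -1.47 against the male samples. Ankrd53 had -3.33 and, against the male samples, -2.37. Its counts were low, with 9, 18, 20 and 9 in the toxin-only samples and 6, 3, 0 and 0 in the injected ones. Trpm3 had 1 count each in injected samples 3 and 4. For Rps6ka2, Trpm3 and Ankrd53 the unadjusted p stayed under 0.05 against the male samples. For the other 7 the unadjusted p against the male samples was above 0.05. Oacyl was at 8.77 and 4.24 CPM in the female samples and between 0.373 and 1.22 CPM in the other 6. Abat, the GABA transaminase, Itpkc, an inositol phosphate kinase, and Ccdc162, Nwd1 and Ccdc85c had log2 fold changes of -1.58, -1.71, -1.78, -2.41 and -1.61. Dsc3, a desmosomal cadherin of skin, had 105 counts in toxin-only sample 1, 1 in sample 2, 5 in sample 4, 1 in sample 5 and 0 in all injected samples, and no fold is given.

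**Figure D4:**
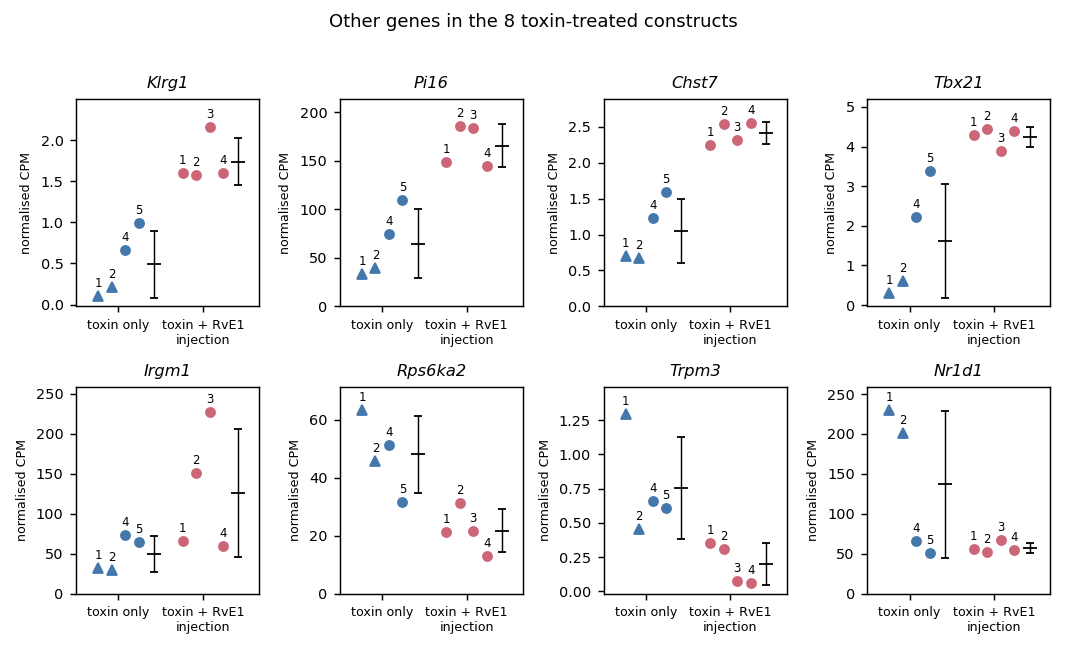
Normalised CPM of 8 further genes in each toxin-only sample (blue, triangles for the female mice 1 and 2) and each injected sample (red), numbered as in the text, with the mean and SD of each group as a bar. Klrg1, Pi16, Chst7, Tbx21, Rps6ka2 and Trpm3 do not overlap between the groups, Irgm1 is highest in injected samples 2 and 3, and Nr1d1 is at 229.9 and 201 CPM in the female samples and between 51.1 and 67.0 CPM in the other 6.

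Stress-hormone and clock genes had negative medians against all 4 toxin-only samples but not against the male ones, while with sex as a covariate the medians were -0.58 and -0.37. Of 18 glucocorticoid-response genes 3 were called lower (Ddit4, Map3k6 and Zbtb16; 2.5% of all genes were called lower), with a median log2 fold change of -0.65, and 0 against the male samples, with a median of 0.04. Ddit4, an inhibitor of mTORC1, stood at 399.6, 401, 109.7 and 109.9 CPM against 90.1, 121, 63.1 and 115 CPM. Map3k6 and Zbtb16 had log2 fold changes of -1.31 and -1.53, and Cdkn1a, the cell cycle inhibitor p21, had -0.73. Among 18 clock genes only Nr1d1 was called, with a list median of -0.35 and of 0.01 against the male samples. Nr1d1 (Rev-erb alpha), a repressor of the clock, stood at 229.9, 201, 65.6 and 51.1 CPM against 55.3, 51.6, 67.0 and 54.6 CPM, so the male toxin-only samples lay within the injected range. Arntl (Bmal1), its target, stood at 43.3, 25.8, 22.5 and 16.1 CPM against 15.6, 15.2, 10.4 and 14.9 CPM and did not overlap between groups. Cry2 had a log2 fold change of -0.95, and Rora, which activates Arntl, had -1.17. Bnip3 and Pfkfb3 of the hypoxia and glycolysis list had -0.84 and -0.92, and no member of that list was called.

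Markers of tissue around the construct varied between single samples. Of 20 skin and hair genes 9 were called lower and 1 higher (2.5% and 2.62% of all genes), with a median of -2.24. Without toxin-only sample 1 the number lower was 2, and against the male samples it was 0. Krt10, a keratin of upper epidermis, stood at 133 CPM in toxin-only sample 1 and between 1.72 and 2.76 CPM in the other 7. Krt1, Krtdap and Ivl, all made in differentiating epidermis, were at 10.1, 33.2 and 4.98 CPM in that sample and at most at 0.0964, 1.01 and 0.0964 CPM in the others. Cidea and Ucp1, a lipid-droplet protein and the uncoupling protein of brown fat, were high in injected samples 1 and 3 only: Cidea stood at 228, 1.40, 223 and 1.07 CPM and Ucp1 at 34.4, 0.148, 11.7 and 0.0592 CPM, against at most 9.68 and 0.169 CPM in toxin-only samples. Both were called higher, with exact permutation p-values of 0.429 and 0.229, but not against the male samples, and the median of the 16 adipocyte genes was -0.26. Of 13 red cell and platelet genes 3 were called higher (2.62% of all genes), and 0 against the male samples. Among the 3 were Slc4a1, the anion exchanger of the red cell membrane, and the globin gene Hbb-bt. Hbb-bt stood at 124 CPM in injected sample 1 and at 2.09 to 40.6 CPM in the others. Of 28 skeletal muscle genes only Myh1, the myosin of fast fibres, was called, at a log2 fold change of -1.86 and of -1.17 against the male samples. The list had 24 of 28 members below 0 and a median of -0.37, or -0.40 against the male samples and -0.74 with sex as a covariate. Its mean log2 CPM was 6.65, 8.62, 8.50 and 7.21 in injected samples 1 to 4 and 8.25 to 8.70 in the toxin-only samples, so the low levels lay in the 2 samples with high B cell and immunoglobulin genes. The part of skin, fat, blood and muscle in the other differences was not tested.

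Neither RvE1 receptor was called. Cmklr1 stood at 55.4, 67.7, 71.7 and 43.5 CPM in the toxin-only samples and 61.0, 64.2, 32.8 and 42.5 CPM in the injected samples, with a log2 fold change of -0.25 ± 0.24 (exact permutation p = 0.343). Ltb4r1 stood at 9.97, 14.6, 23.5 and 39.6 CPM against 34.4, 27.8, 42.3 and 26.9 CPM, with 0.58 ± 0.52 (exact permutation p = 0.171). Of the 22 resolvin receptor and eicosanoid genes 1 was called, Aloxe3, an epidermal lipoxygenase, at -2.28, with 5.18 and 3.16 CPM in the female samples and at most 0.894 CPM in the other 6. Gpr18, a receptor of resolvin D2, stood at 0.797, 0.915, 0.764 and 1.24 CPM against 1.80, 1.45, 2.02 and 1.54 CPM without overlap, a log2 fold change of 0.86 (exact permutation p = 0.0286). Alox15, the lipoxygenase of alternatively activated macrophages, had 0.95 (exact permutation p = 0.229).

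Cytokine and chemokine genes gave few calls. Of 20 type 2 cytokine genes Il9r and Il25 were called higher, and without toxin-only sample 5 the count was 8. Il9r, the receptor for IL-9, stood at 0.498, 0.964, 0.764 and 1.41 CPM against 2.12, 0.754, 1.79 and 3.08 CPM, and the groups overlapped. Its log2 fold change was 1.05, and 0.85 against the male samples. Il25, an epithelial cytokine that drives type 2 responses, had 0 counts in all toxin-only samples and 0, 2, 5 and 2 counts in injected samples 1 to 4, so that only injected sample 3 was above 3 counts, and no fold is given. Of 20 CC chemokine genes Ccl5 was called higher and Ccl20 lower. Ccl20, the ligand of Ccr6, had 15 and 12 counts in the female toxin-only samples and 0 in the other 6. Ccr6 itself was called higher with at most 0.467 CPM in any sample. Of 21 IL-1, TNF and IL-6 family genes only Il1a was called, at -1.05, and of 12 tested lymphoid chemokine and lymphotoxin genes Ltb was called higher at 1.32 (0.74 against the male samples) and Glycam1 lower at -2.82, the latter with 6.05 CPM in toxin-only sample 2 and 0.48 on the log2 scale against the male samples. Ccr7, the receptor that brings lymphocytes to lymph nodes, had 0.80 (exact permutation p = 0.0857). In the germinal centre list of 14 genes Pdcd1 (PD-1) and Cxcr5, the receptor of follicular lymphocytes, were called higher at 1.19 and 1.58 (0.60 and 2.20 against the male samples), and Cxcr5 was high in injected samples 1 and 4.

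Skeletal genes differed little. Of 23 osteoblast and mineral matrix genes tested, 1 was called. It was Sp7 (osterix), the factor of osteoblast commitment, with 0, 5, 0 and 2 counts in the toxin-only samples and 13, 6, 12 and 0 counts in the injected samples. In CPM these were 0, 0.12, 0 and 0.042 against 0.152, 0.0808, 0.895 and 0. Injected sample 3 was the highest, and toxin-only sample 2 exceeded injected sample 2. These counts are small, and the exact permutation p was 0.286. Sp7 was also called against the male samples, but its edgeR p was 0.0534 with sex as a covariate. That p was under 0.05 in 4 of 8 fits with 1 sample left out. Runx2, the earlier osteoblast factor, stood between 14.2 and 21.4 CPM in the toxin-only samples and between 11.8 and 18.6 CPM in the injected samples, with a log2 fold change of -0.08 ± 0.26 (exact permutation p = 0.657). The matrix genes Ibsp and Bglap, made by mature osteoblasts, were at most at 0.241 and 0.289 CPM in any of the 8 samples. Col27a1, a fibrillar collagen of cartilage, stood at 13.2, 6.82, 20.0 and 18.7 CPM against 34.2, 26.0, 58.2 and 18.0 CPM. Its log2 fold change was 1.21 ± 0.41 (p = 0.00702, exact permutation p = 0.0857) and 0.82 (p = 0.0974) against the male samples, and undepleted BCP+MSC held 32.8 to 89.0 CPM. Comp, a cartilage matrix protein, was the other of 24 cartilage genes called, at 1.25, and among 24 collagen genes Fkbp10 and Loxl1, which process collagen, had 0.55 and 0.38 (exact permutation p = 0.0571 for each).

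No member was called in the lists of CXC chemokines (14 genes), monocyte and macrophage (26), osteoclast and giant cell (15), neutrophil (16), mast cell (12), complement (20), myofibroblast and TGF-beta (19), endothelial (18), cell cycle (24), hypoxia and glycolysis (17) and immediate early genes (16). Their medians ran from -0.21 for osteoclast genes to 0.33 for cell cycle genes, in which E2f1 and Ccne1, drivers of entry into S phase, had 0.59 and 0.75. Against the male samples alone Cxcl5, a neutrophil chemokine, was called lower and Marco, a scavenger receptor of macrophages, higher. In the IL-17 axis list of 14 tested genes, Il25 and Ccr6 were called higher and Rora lower. Macrophage genes were at a mean log2 CPM of 7.18 to 8.08 in the toxin-only samples and 7.61 to 8.24 in the injected samples. Neutrophil genes, at which RvE1 is known to act, had a median of -0.11, which was -0.75 against the male samples and ran from -0.71 to 0.81 with 1 sample left out. Their mean log2 CPM ranged from 1.07 to 3.94 in the toxin-only samples and from 1.79 to 3.34 in the injected samples, so a difference was not detectable beside this spread.

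The response to injection in toxin mice was also set against the response to priming of the MSC in mice given no toxin, which uses separate samples. For the difference of the 2 effects edgeR called 0 genes at an adjusted p under 0.05, with 0.355 as the lowest, and 1360 genes (4.45%) had an unadjusted p under 0.05. Of these, 618 (2.02%) were above 1 and 604 (1.98%) below -1 on the log2 scale, from 2.19% and 2.26% with no fold limit, and DESeq2 on all samples called 2 at the adjusted threshold. Of the B cell identity genes 9 of 25 were above 1 with an unadjusted p under 0.05 and 0 below -1, and the median effect of priming on this list was -0.04. Of 197 immunoglobulin variable segments 17 were above 1 and 10 below -1 at that p. Their median effect of priming was 1.325 and their median difference of the effects -0.08. Of 24 plasma cell and immunoglobulin constant genes 0 were above and 0 below, and their median effect of priming was 0.57. For H2-Ob the difference of the effects was 2.02, with -0.08 for priming, for Ms4a1 it was 2.98, with -0.28 for priming, and for Irgm1 it was 1.48, each at an unadjusted p under 0.05. These genes are among those with the smallest p for injection against toxin only, which is part of this contrast. A small p for them here was thus partly built in, and no conclusion is drawn from it. H2-Ob stood between 2.40 and 4.73 CPM in undepleted BCP+MSC and between 2.73 and 3.63 CPM in BCP+MSC+RvE1. Injected samples 1 to 4 were at 5.26, 1.31, 1.34 and 3.79 CPM, so samples 2 and 3 were below both of these ranges. Priming and injection also differed in route, timing, host treatment and the sex of the mice, which cannot be told apart in this contrast.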

How the data were processed

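RNA of whole constructs was sequenced from TruSeq Stranded mRNA libraries on the NovaSeq platform, paired end. The authors aligned reads with HISAT2 2.0.5 and deposited raw counts per gene from featureCounts 1.5.2 (GENCODE vM13 exons), with no strand, multi-mapping or overlap option stated, so that overlapping genes share uncertainty. The submitters' processing notes also name DESeq2 1.42.0, Picard and STAR.

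Counts as deposited for 24 samples were fitted together in edgeR 4.0.16 (R 4.3.3, limma 3.58.1) with TMM factors and robust quasi-likelihood, for the 30564 of 39183 detected genes with 10 or more counts in total. p-values were Benjamini-Hochberg adjusted over all of them. A call needs an unadjusted p under 0.05 and a log2 fold change beyond 1. CPM are TMM-normalised, and list levels are mean log2 CPM with a prior count of 2. Exact two-sided permutation tests ran over 70 arrangements. A count of 3 corresponds to between 0.0351 and 0.354 CPM in the 8 samples, and covers counting error only. Total counts of the 24 samples spanned 17.0-fold.

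The members and gene lists were chosen with earlier results of these data known. Named genes were those the study names for this comparison and Foxp3, the 10 higher and 10 lower genes described, up to 4 members per list with the smallest p, and 13 defining genes. Other list members named (Pax5, Blk, Vpreb3, Fcrla, Tnfrsf13c, Spib, Fcer2a, Ebf1, Cd22, Cd8b1, Gbp2, Cxcl5 and Marco) were chosen after their values were seen. A few genes that this rule names are not reported here. Sex was read from Xist and Y-linked genes. Alternatives were RLE factors, other filters, the 8 samples alone, DESeq2, replicate number as a block, sex or library size as a covariate, and each sample left out. The scripts were tested on simulated data. Promoters came from RefSeq (GRCm38.p6).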

Additional observations from a re-analysis of the deposited data

Results flagged for a closer look

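Of 268 groups of 4 values looked at, 36 held a sample far from the other 3 by Dixon's test. Chance gives about 1 group in 20 only for independent, normally distributed values. Most values here were CPM of related genes, partly chosen in these same samples, so no excess over chance is read from the count. In toxin-only sample 1 the values flagged were CPM of 10.5 for Dsc3, 2.39 for Nwd1, 3838 for Myh1, 4.98 for Ivl, 10.1 for Krt1, 133 for Krt10 and 33.2 for Krtdap. Toxin-only sample 2 had 9.52 CPM of Ighe, 6.05 of Glycam1, 9.68 of Cidea and 0.289 of Bglap. In toxin-only sample 4, Ccr6 was at 0.0823 CPM and the mean log2 CPM of the IL-17 axis list at 1.35. Toxin-only sample 5 had 16.0 CPM of Ighg2c, 13.3 of Ltb, 30.3 of Mzb1, 351 of Igha and 1379 of Igkc, and a mean log2 CPM of 3.75 for the resolvin and eicosanoid list.

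In the injected group, sample 1 stood apart with CPM of 0.0351 for Krt1, 1.34 for Slc4a1, 124 for Hbb-bt and 96.4 for Igkv17-121. Sample 2 did so for Cdkn1a at 326 CPM, and sample 4 for Igkv4-59 at 76.3 CPM and Bglap at 0.237 CPM. Sample 3 had CPM of 0.895 for Sp7, 6.12 for Klra1, 2.16 for Klrg1, 3.21 for Itpkc, 29.3 for Trbc2, 10.4 for Arntl and 11.8 for Runx2. Its mean log2 CPM was 5.57 for complement, 4.05 for endothelial and 0.75 for germinal centre genes.

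For 31 of 98 named genes the injection effect in toxin mice and the priming effect in undepleted mice differed at an unadjusted p under 0.05 in edgeR, and none did after adjustment. Over all genes tested the share was 4.45%. Named genes were chosen largely by a small p for injection against toxin only, which is part of this contrast. A higher share among them was thus built in, and no conclusion is drawn from it. The difference of the effects, on the log2 scale, was positive for the B cell genes H2-Ob (2.02), Ms4a1 (2.98), Cd79b (1.53), Fcmr (3.11) and Igkv2-109 (6.04). It was also positive for the lymphocyte genes Klra1 (3.54), Klrg1 (2.02), Cd6 (1.01), Il9r (1.60) and Ccr6 (3.30), and for Irgm1 (1.48), H2-Eb2 (1.96), Mir5107 (1.44), Chst7 (1.28), Loxl1 (0.57), Ccne1 (1.04) and Il25 (4.78). Among lower genes it was -0.98 for Rps6ka2, -2.19 for Ccdc162, -2.47 for Nwd1 and -4.17 for Ankrd53. The clock genes Nr1d1, Cry2 and Rora had -1.33, -1.33 and -1.09, and Bnip3 had -0.93. Skin genes had -4.09 (Ivl), -6.58 (Krt1), -4.33 (Krt10) and -4.31 (Krtdap), Glycam1 had -4.23 and Ccl20 had -8.77. Fitted values of Il25 and Ccl20 depend on the prior count, since a group was at or near 0 counts.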

How the results depend on the processing

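The 802 genes called higher numbered 357 with filterByExpr, 430 with edgeR and 489 with DESeq2 on the 8 samples, and 528 without the female samples. The 765 called lower numbered 307 with filterByExpr, 406 with sex as a covariate and 279 without the female samples. At the adjusted threshold DESeq2 called 8 genes on all samples and 2 on the 8 samples. For the difference from priming, 219 genes were above and 228 below with filterByExpr, 339 and 365 with DESeq2, which called 2 at the adjusted threshold, and 320 below without the female samples. Replicate numbers paired only samples 1 and 2 of each group, with correlations of deviations of -0.123 and -0.0579, so the samples share only a number. With the replicate block, whose toxin-only samples were both female, 1590 genes were higher, 1197 lower and 344 past the adjusted threshold, and 1492 were above and 30 past the adjusted threshold in the difference from priming. List medians with the block were 1.30 for CC chemokines, 0.70 for IL-1, TNF and IL-6, 2.08 for MHC class II, 2.82 for NK, 1.78 for T cell receptor, 1.23 for cell cycle, -1.18 for glucocorticoid, 0.25 for hypoxia, 1.78 for interferon, 0.59 for macrophage, 0.64 for myofibroblast, 1.06 for neutrophil, 0.55 for osteoblast, 1.00 for regulatory T cell and 1.70 for type 2 genes. The IL-17 median was 0.15 with sex as a covariate and 0.11 without the female samples, where the clock median was 0.010, the glucocorticoid median 0.044 and the skin median -0.046.

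Leaving out 1 sample at a time gave 626 to 1144 genes higher and 454 to 1009 lower, and 522 to 818 above and 428 to 976 below for the difference from priming. Medians then ran from 1.07 to 1.79 for B cell identity, 0.77 to 1.70 for NK, 0.58 to 1.27 for T cell receptor, 0.53 to 1.28 for MHC class II, 0.48 to 2.69 for immunoglobulin variable, 0.48 to 2.05 for plasma cell -3.67 to -0.13 for skin, 0.088 to 0.91 for CC chemokine, -0.16 to 0.19 for IL-17 and 0.0 to 0.57 for osteoblast genes. Without the female samples the direction turned for Foxp3 (0.091), Glycam1 (0.48), Krt10 (0.14), Krtdap (0.029), Cry2 (0.36) and Bglap (1.75). It turned for Runx2 with the block (0.13) and without toxin-only sample 4 or injected sample 3 (range over left-out samples -0.17 to 0.049), for Krt10 without toxin-only sample 1 (range -4.49 to 0.078) and for Bglap without toxin-only sample 2 (range -2.25 to 1.90). The cause of these changes was not tested. Over the 98 named genes, the other settings left 802 values on their side of the threshold with the same direction and 146 no longer past it. Low counts limit Sp7, Il25, Ccl20, Ccr6, Bglap, Ankrd53, Trpm3 and Fcmr.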
